A study of Mus musculus with 6 samples.

Results

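Desmosomes are junctions that tie the keratin filaments of neighbouring epithelial cells together. Their desmoglein and desmocollin cadherins span the gap between cells, plakoglobin and the plakophilins bind the cadherin tails, and desmoplakin links that plaque to keratin. Periplakin and envoplakin are plakins related to desmoplakin and are best known from the cornified envelope of skin. Loss of desmosomes is a known part of epithelial-mesenchymal transition, and Zeb1 is a known repressor of epithelial junction genes. The members described here are 9 genes named by symbol, namely the cadherin genes Dsg2 and Dsc2, the armadillo-repeat genes Jup, Pkp1, Pkp2 and Pkp3, and the plakin genes Dsp, Ppl and Evpl. They were measured by 21 of the 22690 probe sets of the table and are 9 of 12393 genes tested. All 9 entered the test, since no filter on level was set.

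The arrays are labelled as 344SQ, a metastatic mouse lung cancer line that the labels call high in Zeb1. One group of 3 arrays carried a control vector and the other group of 3 carried inducible miR-34a, a microRNA known as a target of p53. Both groups share the same line, and the promoter and the inducing agent are not named in the labels. The labels describe cultured cells in some fields and primary tumours of injected mice in others. The titles of the miR-34a arrays name tumours. Markers of other cell types were also read on the arrays, so the values are not taken as those of 344SQ cells alone. The labels do not state that each replicate is its own animal or culture. The p-values then reflect only how far these samples scatter, possibly for technical reasons. With 3 arrays a group, precision is limited throughout.

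The mature strand of the expressed microRNA is given with its seed, bases 2 to 8, in capitals, because it is the sequence by which the miR-34a group differs from the vector group by design. The sequence is from RefSeq (GRCm38.p6, chr4:150068473-150068494, plus strand).
mmu-miR-34a-5p: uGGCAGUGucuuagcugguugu
Mature miR-34a itself was not measured on these arrays.

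Of the 9 members, 2 had a RefSeq promoter window (GRCm38.p6), Dsp and Jup. They are shown because the line is labelled high in Zeb1, whose known binding motif CAGGTG was searched on both strands. Each is printed from 250 bases before the transcription start to 30 after it, with the motif in capitals. The Dsp window is chr13:38151044-38151323 on the plus strand and the Jup window chr11:100397761-100398040 on the minus strand.
Dsp: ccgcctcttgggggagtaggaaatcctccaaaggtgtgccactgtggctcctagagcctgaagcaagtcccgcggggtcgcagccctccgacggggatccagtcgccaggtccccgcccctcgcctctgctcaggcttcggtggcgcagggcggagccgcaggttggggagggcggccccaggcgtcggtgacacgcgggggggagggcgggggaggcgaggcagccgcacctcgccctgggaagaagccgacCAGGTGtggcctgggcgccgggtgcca
Jup: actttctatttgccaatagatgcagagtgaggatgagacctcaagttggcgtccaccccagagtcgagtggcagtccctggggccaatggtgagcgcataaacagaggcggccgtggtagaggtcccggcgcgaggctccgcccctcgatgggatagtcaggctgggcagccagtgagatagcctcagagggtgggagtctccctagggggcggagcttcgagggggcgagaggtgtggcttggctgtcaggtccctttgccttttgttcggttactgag
In the whole 300 bases searched, Dsp held CAGGTG once, from base 4 to base 9 after the start, and Jup held these letters 0 times. The motif stood in 20.2% of 32851 promoter windows of that length, of which some genes have several. The letters AACCNGTT, a known motif of Grhl factors, which act in epithelial junction gene control, stood in neither window and in 2.09% of all windows. A match is a description of letters and not a measured binding site.

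Setting miR-34a against vector arrays asks whether desmosome transcripts differ when miR-34a is expressed. None of the 9 desmosome genes passed an adjusted p of 0.05 (0 higher and 0 lower), where 11.7% of all genes passed. At an unadjusted p under 0.05, 1 member, Jup, passed, against 28.2% of all genes, and at an adjusted p under 0.1 the same gene passed, against 19.5%. Changes were above 0 in 4 members and below 0 in 5, with a median of -0.0051 in log2 units beside 0.024 over all genes. The groups did not overlap in Jup and Dsc2, 2 of 9 members, against 34.9% of all genes. The intervals of the 9 changes ran from -0.83 at the lowest bound, for Pkp3, to 1.04 at the highest, for Dsg2.

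**Figure D1:**
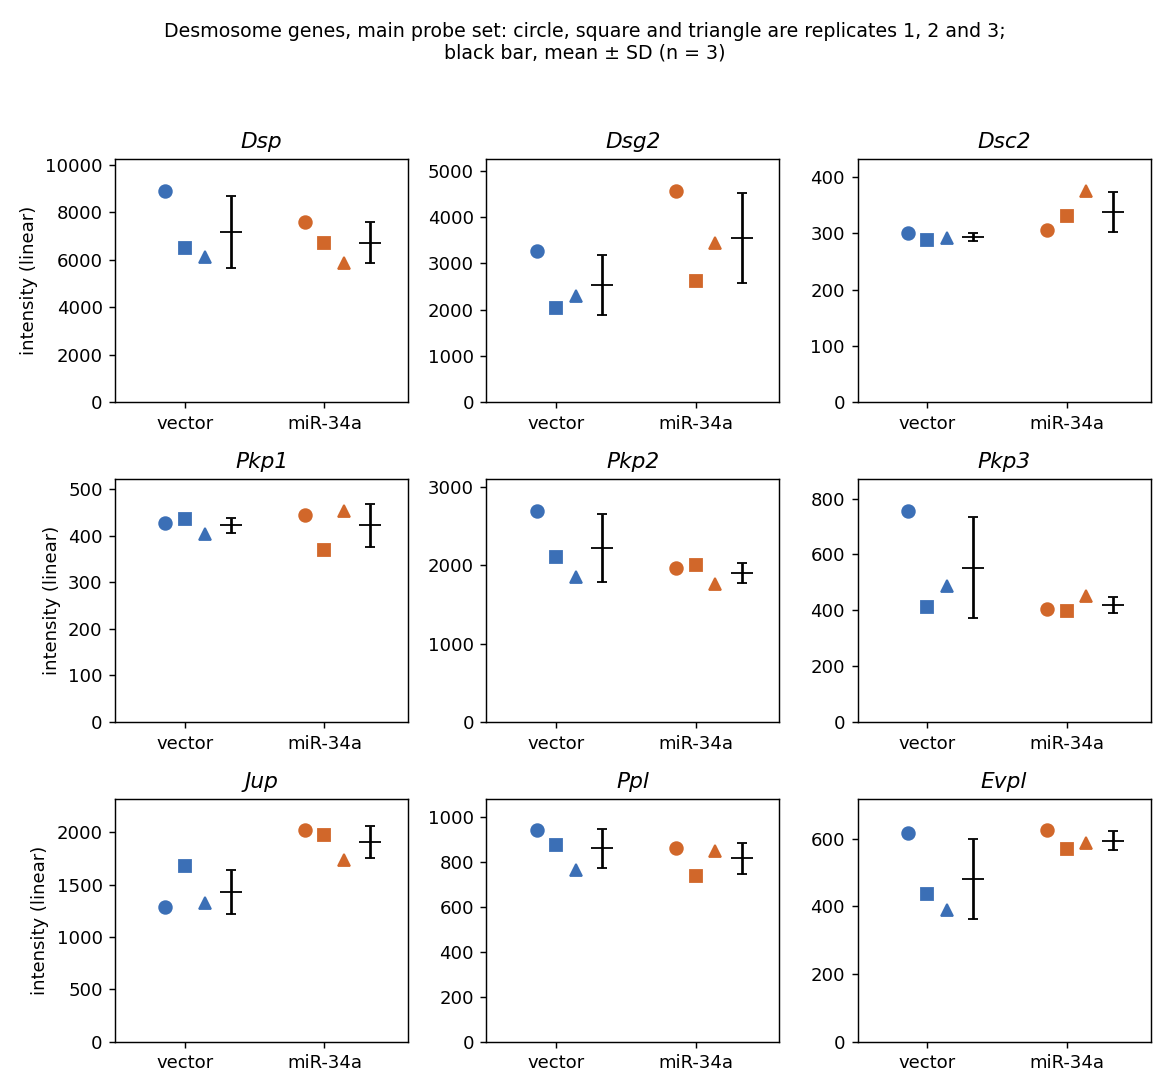
Intensity on a linear axis from 0 for the main probe set of each desmosome gene, with a circle, square and triangle for replicates 1, 2 and 3 of vector (blue) and miR-34a (orange), and the mean ± SD (n = 3) as black bars. Jup and Dsc2 are the panels whose groups do not overlap, and in Dsp, Pkp2, Pkp3 and Ppl the vector 1 circle is the highest point of the panel.

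Of the cadherin genes, Dsg2 encodes the desmoglein of simple epithelia and heart. Its main probe set, 1439476_at, read 3255, 2030 and 2303 in vector 1, 2 and 3 and 4561, 2626 and 3437 in miR-34a 1, 2 and 3, as linear intensities. The highest array was miR-34a 1, and the groups overlapped because vector 1 lay above miR-34a 2. The log2 change, miR-34a minus vector, was 0.48 ± 0.239 (SE), 1.39-fold, with a 95% interval from -0.09 to 1.04 (limma adjusted p = 0.246). Without miR-34a 1 it was 0.28, and the mean of its probe sets changed by 0.26. The 6 probe sets of Dsg2 disagreed in sign. The second brightest, 1449740_s_at, read 2200, 1367 and 1466 in vector and 3282, 2142 and 2482 in miR-34a arrays, a log2 change of 0.66 ± 0.218 (SE; limma adjusted p = 0.0924 over all probe sets). Probe sets 1425619_s_at and 1449741_at changed by 0.35 and 0.24, and the dim 1460380_at and 1426153_a_at by -0.09 and -0.09. In each of the 4 probe sets above 0, miR-34a 1 was the highest array.

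Dsc2 encodes the desmocollin that pairs with Dsg2 in simple epithelia. Its main probe set, 1421156_a_at, read 302, 288 and 291 in vector and 306, 331 and 375 in miR-34a arrays. The groups did not overlap, with a gap of a few units between vector 1 and miR-34a 1. Every value lay below the median of its array, and without detection calls such dim values are not told apart from background. The log2 change was 0.19 ± 0.0940 (SE), with an interval from -0.04 to 0.41 (limma adjusted p = 0.247). Without miR-34a 3 it was 0.11, the lowest of the 17 alternatives, which ran up to 0.25. A second probe set, 1426911_at, read only 18.6 to 20.6 in vector and 21.2 to 31.6 in miR-34a arrays, near the pseudocount of 16, and changed by 0.23 on the log2(intensity + 16) scale.

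Of the armadillo-repeat genes, Jup encodes plakoglobin, which binds desmosomal cadherins and also classical cadherins, in endothelium too. Its single probe set, 1426873_s_at, read 1290, 1676 and 1325 in vector and 2018, 1975 and 1737 in miR-34a arrays. All miR-34a arrays lay above all vector arrays. The log2 change was 0.42 ± 0.123 (SE), 1.34-fold, with an interval from 0.13 to 0.71 and the lowest adjusted p among the members (unadjusted p = 0.0112, limma adjusted p = 0.0724). Without vector 2, its highest vector array, Jup passed at 0.54 (adjusted p = 0.0322), and with array weights at 0.44 (adjusted p = 0.0184). Over the 17 alternative settings its adjusted p ran from 0.0184 to 0.208, and its change from 0.35 to 0.54.

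The plakophilins link the cadherin tails to desmoplakin. Pkp2, the plakophilin of simple epithelia and heart, read 2694, 2108 and 1844 in vector and 1960, 1996 and 1759 in miR-34a arrays by probe set 1449799_s_at. Vector 1 was the high array and the other 5 lay together, so the log2 change of -0.20 ± 0.145 (SE; interval -0.54 to 0.14; limma adjusted p = 0.422) was -0.05 without vector 1 and -0.32 without vector 3. The other 3 probe sets of Pkp2 changed by -0.34, -0.11 and -0.03, and vector 1 was the highest array in all 4. Pkp3, which is found in most epithelia, also had vector 1 as its high array. Its main probe set, 1418832_at, read 756, 413 and 487 in vector and 406, 399 and 452 in miR-34a arrays. The log2 change was -0.34 ± 0.206 (SE; interval -0.83 to 0.14; limma adjusted p = 0.330), and -0.10 without vector 1 and -0.52 without vector 2. Its second probe set, 1418831_at, read 826 in vector 1 and 350 to 426 in the other 5 arrays. Pkp1, the plakophilin of stratified epithelia, read 428, 435 and 404 in vector and 444, 369 and 454 in miR-34a arrays by probe set 1449586_at. Its log2 change was -0.01 ± 0.10 (SE), with an interval from -0.24 to 0.23 (limma adjusted p = 0.983). Every Pkp1 value lay below the median of its array, so the limit on dim values holds here too. The main probe set of Pkp3 lay below the array median in vector 2 and in all miR-34a arrays.

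**Figure D2:**
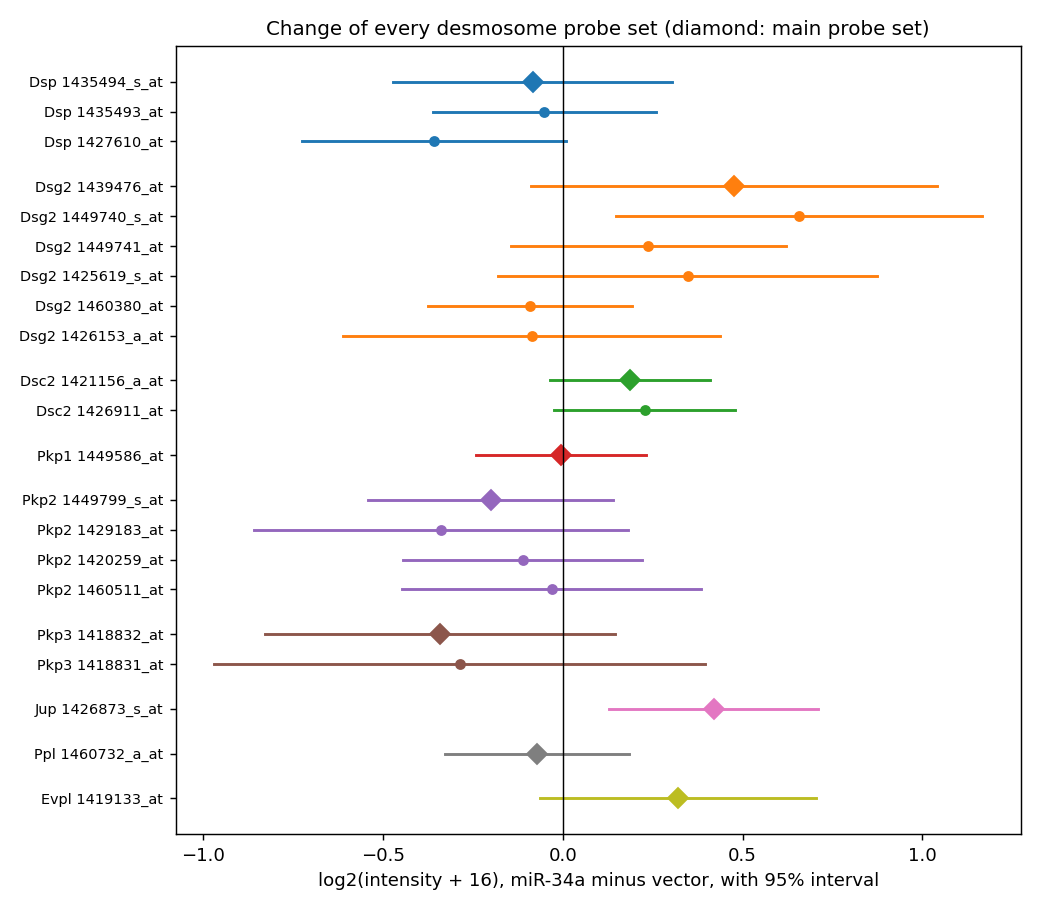
Change in log2(intensity + 16), miR-34a minus vector (horizontal axis), with its 95% interval for each of the 21 probe sets, grouped and coloured by gene; diamonds are main probe sets and circles the others. The interval lies wholly above 0 for Jup and for 1 Dsg2 probe set, and the 6 Dsg2 probe sets run from -0.09 to 0.66.

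Of the plakins, Dsp encodes desmoplakin, the obligate link from plaque to keratin. Its main probe set, 1435494_s_at, read 8892, 6507 and 6108 in vector and 7584, 6704 and 5844 in miR-34a arrays. The groups overlapped, with vector 1 the highest and miR-34a 3 the lowest array. The log2 change was -0.08 ± 0.165 (SE), with an interval from -0.47 to 0.31 (limma adjusted p = 0.790), and it was 0.08 without vector 1. A second probe set, 1435493_at, changed by -0.05. The dim 1427610_at read 623, 398 and 479 in vector and 354, 394 and 394 in miR-34a arrays without overlap, a change of -0.36 ± 0.157 (SE; limma adjusted p = 0.181 over all probe sets).

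Evpl, which encodes envoplakin, read 616, 437 and 390 in vector and 625, 569 and 588 in miR-34a arrays by probe set 1419133_at. Vector 1 lay within the miR-34a range, and vector 2 and 3 lay below it and below the median of their arrays. The log2 change was 0.32 ± 0.163 (SE), 1.25-fold, with an interval from -0.06 to 0.70 (limma adjusted p = 0.249). Without vector 1 it was 0.51 (adjusted p = 0.0108), and with array weights 0.52 (adjusted p = 0.0109); without vector 3 it was 0.19 (adjusted p = 0.527). Over the 17 alternatives the change ran from 0.19 to 0.52 and the adjusted p from 0.0108 to 0.527. Ppl, which encodes periplakin, read 940, 874 and 764 in vector and 861, 737 and 849 in miR-34a arrays by probe set 1460732_a_at. Its groups overlapped, and the log2 change was -0.07 ± 0.108 (SE), with an interval from -0.33 to 0.18 (limma adjusted p = 0.717).

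Vector 1 stood apart from the other arrays over all genes, with Pearson's r across genes of 0.9686 and 0.9722 to vector 2 and vector 3, which correlated at 0.993. Among the 3 vector arrays it was the highest in 7 of the 9 members, where it was the highest in 49.6% of all genes, and the lowest in Jup alone. In log2 units it exceeded the mean of vector 2 and vector 3 by 0.73 in Pkp3, 0.59 in Dsg2, 0.56 in Evpl, 0.50 in Dsp, 0.45 in Pkp2, 0.20 in Ppl, 0.06 in Dsc2 and 0.03 in Pkp1, and differed by -0.21 in Jup. Without vector 1, 1 of 9 members passed, Evpl as higher, where 17.2% of all genes passed, 10.1% as higher. Without vector 2, Jup passed, where 10.1% of all genes passed. In the other 4 fits that left out 1 array, 0 of 9 members passed, where 5.09% of all genes passed in the fit that lacked vector 3. That share was 2.06% when miR-34a 1 was the array left out, 5.38% for miR-34a 2 and 1.82% for miR-34a 3. With array weights, Dsg2 at 0.63, Jup and Evpl passed as higher, where 26.1% of all genes passed and 15.5% as higher. The weights were 0.267, 0.734 and 2.695 for vector 1, 2 and 3, so vector 3 counted most in the vector group.

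**Figure D3:**
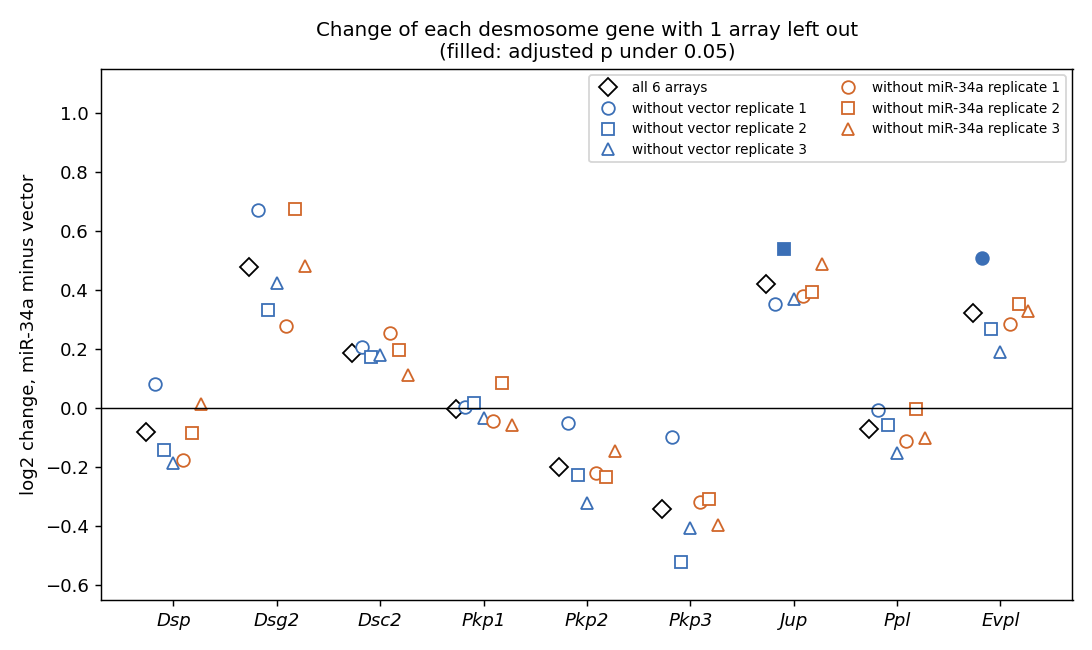
Log2 change, miR-34a minus vector (vertical axis), of each desmosome gene over all 6 arrays (black diamonds) and with each array left out in turn (blue for a vector array, orange for a miR-34a array); filled symbols have an adjusted p under 0.05. The filled symbols are Jup without vector 2 at 0.54 and Evpl without vector 1 at 0.51, and Dsg2 ranges from 0.28 to 0.67.

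Markers of other cell types moved with vector 1 and, in part, with the groups. The counts passing in each marker list stand beside 11.7% of all genes. The intensities of 12 fibroblast markers summed to 17990 in vector 1, 53540 and 41970 in vector 2 and vector 3, and 43990 to 63630 in miR-34a arrays, and 2 of 12 passed as higher, the surface protein gene Thy1 at 1.73 and the procollagen enhancer gene Pcolce at 0.81. The brightest of the list, the collagen genes Col1a2 and Col3a1 and the matrix gene Postn, changed by 0.92, 0.54 and 0.73 and did not pass. Col1a2 read 2897 in vector 1 and 8256 to 13685 in the other 5 arrays. The sums of 12 macrophage markers were 19870 in vector 1, 29730 and 28860 in the other vector arrays and 30680 to 34740 in miR-34a arrays, with 2 passing as higher, the complement gene C1qb at 1.13 and the Fc receptor gene Fcgr1 at 0.98, and the mannose receptor gene Mrc1 as lower at -0.99. C1qb did not pass under quantile normalization, and its other probe sets, at 0.90 and 1.03, did not pass. Nor did the mean of its probe sets, at 1.02 (limma adjusted p = 0.0858). The brightest macrophage markers, Ctss, Lyz2 and C1qa, changed by 0.47, 0.54 and 0.83 and did not pass. The sums of 12 endothelial markers, which bear on Jup, ran from 5820 (vector 1) to 10190 in vector and from 7921 to 8293 in miR-34a arrays, and 0 passed; the brightest, Flt1, Cdh5 and Egfl7, changed by 0.32, -0.05 and -0.10. The sums of 12 skin keratinocyte markers ran from 4061 to 6092 (vector 1) in vector and from 3973 to 4398 in miR-34a arrays, and 0 passed; the brightest, Krt14, Krt5 and Lor, changed by -0.43, -0.10 and 0.16. For heart and skeletal muscle, whose heart cells also build desmosomes, the sums of 12 markers ran from 7986 to 10920 and from 8706 to 11270, and the myosin gene Myh7 passed as higher at 0.69, a call lost under both other scalings. The other bright muscle markers, Tnnt2 and Ckm, changed by -0.56 and 0.37 and did not pass. Tnnt2 weighs most in the muscle sums, while 10 of the 12 changed above 0 and 2 below, with a median of 0.25. Acta1 and Des, named after their values were seen, were uneven. In miR-34a 1, 2 and 3 Acta1 read 1486, 169 and 2617 and Des 753, 373 and 932. In vector arrays they read 177 to 583 and 384 to 399. A second Des probe set, 1426732_at, changed by -0.0005, and the mean of the Des probe sets by 0.35. None of these markers was listed at 1, the lowest value in the table, in any array. The part of other cell types in the members' values was not tested. In such bulk RNA, fewer cells of a type and less RNA per cell cannot be told apart.

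The labelled cell type was checked on 12 lung adenocarcinoma markers, of which 0 passed in either direction, where 11.7% of all genes passed. In log2 units the keratin gene Krt18 averaged 14.50 in vector and 14.56 in miR-34a arrays, Krt8 14.34 and 14.43, Krt19 13.82 and 13.58 and the E-cadherin gene Cdh1 13.64 and 13.71. Epcam, an epithelial adhesion gene, read 305 in vector 1 and 951 to 1463 in the other 5 arrays. Vector 1 also stood apart in the surfactant gene Sftpb, which read 529 there and 9137 to 15107 in the other 5 arrays, a log2 change of 1.85 between groups (limma adjusted p = 0.303). The mucin gene Muc1 read 6256 in vector 1 and 2086 to 3722 in the other 5 arrays, with a change of -0.01 (limma adjusted p = 0.992). The lung lineage factor gene Nkx2-1 had means of 8.28 and 8.10 and the surfactant gene Sftpc 7.92 and 8.19, and without detection calls these dim values are not told apart from background. Sftpb, Muc1, Nkx2-1 and Sftpc were chosen after their values were seen.

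**Figure D4:**
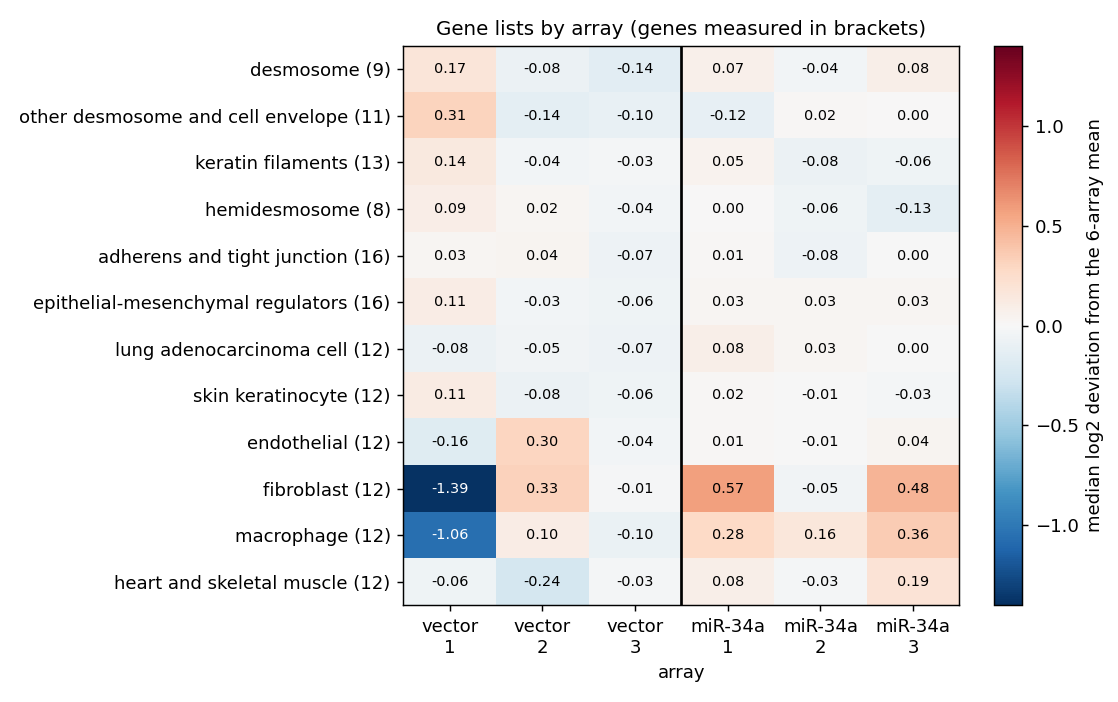
Median log2 deviation of each gene list in each array from each gene's mean over the 6 arrays, printed in each cell and coloured from blue (below) to red (above); the number of measured genes follows each list name, and a line parts vector from miR-34a arrays. Vector 1 is at -1.39 for fibroblast and -1.06 for macrophage markers, and at 0.17 for the desmosome genes.

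Of the other genes of the desmosome and cell envelope, 11 of 18 listed were measured and 0 passed, where 11.7% of all genes passed. Their median log2 change was -0.16. Their brightest members were the small proline-rich envelope gene Sprr1a at -1.01 ± 0.378 (SE; limma adjusted p = 0.133), the desmosomal p53 target gene Perp at -0.27 and Pkp4, a relative of the plakophilins, at -0.49. Sprr1a read 23247, 8796 and 11840 in vector and 5551, 9711 and 5490 in miR-34a arrays, and vector 1 was the highest vector array in all 11 genes. Of 13 keratin filament genes, to which desmosomes attach, 2 passed, both lower, beside the same 11.7% of all genes. Krt20, a keratin of gut and urothelial epithelia, read 9704, 4639 and 6931 in vector and 3869, 2774 and 3175 in miR-34a arrays, a log2 change of -1.06 ± 0.262 (SE; limma adjusted p = 0.0435). Krt23 changed by -0.40 ± 0.0830 (SE; limma adjusted p = 0.0276). Krt20 and Krt23 passed in none of the fits without vector 3, miR-34a 1 or miR-34a 3. Without vector 2, or with a block for replicate number, Krt20 passed and Krt23 did not. Without miR-34a 2, or with a robust trend of the variance, Krt23 passed and Krt20 did not. The simple epithelial pair Krt8 and Krt18, whose filaments are the partners of Dsp in such cells, changed by 0.09 and 0.05, with intervals from -0.11 to 0.29 and from -0.14 to 0.25.

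Hemidesmosomes tie keratin to the basement membrane through the plakins Plec and Dst and the integrin of Itga6 and Itgb4. Of 8 measured genes, 1 passed, where 11.7% of all genes passed. It was the tetraspanin gene Cd151 at 0.38 ± 0.0970 (SE; limma adjusted p = 0.0477). That call was lost in every fit that left out 1 array and under both other scalings. Plec changed by 0.25 and Itga6 by -0.19 (adjusted p = 0.174 and 0.312); the other Itga6 probe set changed by 0.40 and did not pass. Of 16 adherens and tight junction genes, 3 passed, beside the same 11.7% of all genes. The occludin gene Ocln at 1.98 and the tricellulin gene Marveld2 at 0.49 passed as higher and the scaffold gene Tjp1 at -0.44 as lower. Marveld2 and Tjp1 passed in none of the fits without vector 2, vector 3 or any 1 miR-34a array, while Ocln passed in each. Without vector 1, Ocln and Tjp1 passed and Marveld2 did not, and Marveld2 also did not pass under either other scaling. Cdh1 changed by 0.08, with an interval from -0.11 to 0.27, and the catenin genes Ctnnb1 and Ctnna1, whose proteins bind it, by -0.15 and 0.09. The probe sets of Ctnnb1 disagreed in size: its dimmer ones changed by -0.45 and -1.05 and passed as lower over all probe sets (limma adjusted p = 0.0155 and 0.00451), and the mean of its probe sets changed by -0.55 (limma adjusted p = 0.00903).

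Of 16 regulators of the epithelial state, 1 passed, where 11.7% of all genes passed. It was the mesenchymal factor gene Twist1 at 1.56 ± 0.323 (SE; limma adjusted p = 0.0264). Twist1 read 63.8, 172 and 175 in vector and 425, 369 and 422 in miR-34a arrays, lowest in vector 1. Each value lay below the median of its array, so the limit on dim values holds here too. The Twist1 call was lost without any 1 of the miR-34a arrays. With a robust trend of the variance it was also lost, and Ovol1 passed as lower instead. Without vector 1, 3 of 16 passed, where 17.2% of all genes passed. Twist1 passed as higher. The epithelial factor gene Elf3 and the repressor gene Snai2 passed as lower, both named after their values were seen. Every Snai2 value also lay below the median of its array. Zeb1 read 1383, 1677 and 1646 in vector and 1556, 1648 and 1574 in miR-34a arrays. Its groups overlapped, with a log2 change of 0.03 ± 0.0976 (SE) and an interval from -0.20 to 0.26 (limma adjusted p = 0.896). The dimmer Zeb1 probe set, 1420243_at, changed by -0.17 and the mean of its probe sets by -0.07, and neither passed. Zeb2, a relative of Zeb1, changed by 0.73 (adjusted p = 0.200). Grhl2, an epithelial factor, changed by 0.11 (adjusted p = 0.428), Ovol1, a repressor of mesenchymal genes, by -0.42 (adjusted p = 0.0542) with its other probe set at 0.14, and Klf5 and Klf4, epithelial factors with the highest means of this list, by 0.00 and 0.02.

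**Figure D5:**
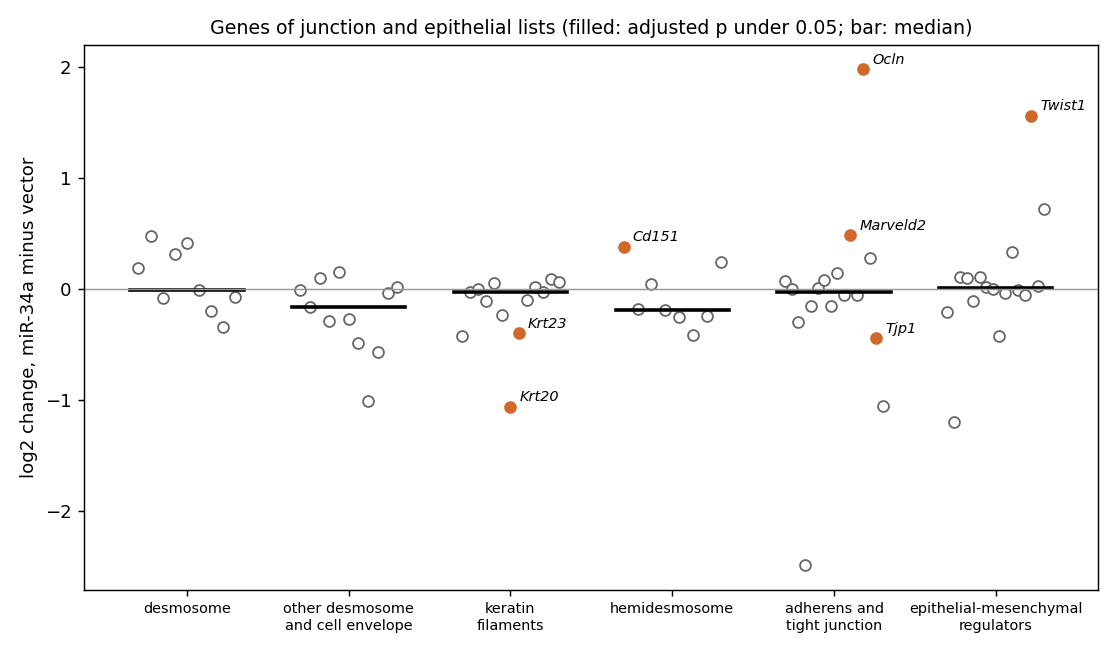
Log2 change, miR-34a minus vector (vertical axis), of each gene in the desmosome list and 5 related lists; filled and named points have an adjusted p under 0.05 and black bars are list medians. No desmosome point is filled, and the 6 lists' medians lie between -0.19 and 0.01.

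Among 6196 genes above the median level, those whose log2 values were most like Dsp over the 6 arrays were Dcbld1 (Pearson's r = 0.945), Frmd4b (0.944), Gorasp2 (0.938), Anxa4 (0.932) and Czib (0.927). Spearman's rho was 0.943 for each of the first 3, 0.657 for Anxa4 and 0.886 for Czib. Among the 4 other members above that level, r to Dsp was 0.881 for Pkp2, 0.60 for Ppl, 0.42 for Dsg2 and -0.211 for Jup. The arrays fall into 2 groups of 3 and vector 1 is high in Dsp, so these values describe 6 arrays only.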

How the data were processed

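Messenger RNA was measured on 6 Affymetrix mouse arrays, 3 vector and 3 miR-34a, grouped by the sample titles. The authors deposited linear intensities, and how they summarised and normalized them is not given in the sources used here. Array medians ran from 466.7 to 484.2, so the values were taken as scaled already. Probe sets were named by the platform annotation, with symbols brought up to date by Entrez identifier from the RefSeq table of GRCm38.p6. Those with several symbols (691) or none (1606) were left out. The 64 controls were also left out, most of them already within those counts, so 20380 of 22690 probe sets remained. Each gene was represented by its probe set with the highest mean log2(intensity + 16), a scale that understates changes of dim probe sets. In limma 3.58.1 (R 4.3.3; lmFit, then eBayes), 12393 genes were tested with two-sided p-values, adjusted by Benjamini-Hochberg over all of them, at a threshold of 0.05 and with no filter on level or block. Other probe sets were adjusted over 20380 probe sets. The fit was checked on simulated data. The members and lists were chosen with earlier results of these data known. Named were every desmosome gene, in each other list the members past the threshold and the 3 with the highest mean, 8 genes of epithelial state (Zeb1, Zeb2, Grhl2, Ovol1, Cdh1, Epcam, Krt8, Krt18), and the 5 genes most correlated with Dsp among genes above the median level. Alternatives were 2 scalings, pseudocounts of 1 and 64, leaving out the dimmest genes, other rules for probe sets, array weights, a robust trend of the variance, a block for replicate number, thresholds of 0.1 and 0.01, and leaving out each array. Figures were drawn with matplotlib 3.10.9.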

Additional observations from a re-analysis of the deposited data

How the results depend on the processing

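Of 153 alternative values for the 9 members' changes, 140 kept their direction and their side of the threshold, 8 changed sign and 5 passed the threshold. With a robust trend, a replicate block, fewer genes or each probe set tested, the change equals the main one by construction. The same holds for the mean of probe sets in genes with 1 probe set. In these fits only the side of the threshold could differ. The sign changes were in members with changes near 0: with array weights Dsp was 0.053, Pkp1 0.064 and Ppl 0.054, and with 1 array left out Dsp ran from -0.189 to 0.082 and Pkp1 from -0.058 to 0.086. The count of members passing, 0, was 3 with array weights, 1 at a threshold of 0.1 (Jup) and 0 to 1 with 1 array left out. The count of all genes, 1456, was 3238 with array weights, 2422 and 248 at thresholds of 0.1 and 0.01, and 226 to 2133 with 1 array left out. Same-numbered arrays did not deviate together (r of deviations from group means -0.168, -0.0935 and -0.0812 for numbers 1, 2 and 3); with the replicate block 522 genes and 0 of 9 members passed, 1 keratin, 0 hemidesmosome, 1 junction and 0 regulator genes. With array weights 1 of 11 other desmosome, 3 of 8 hemidesmosome, 5 of 16 junction and 3 of 16 regulator genes passed, where 26.1% of all genes passed. Keratins passing numbered 1 with a variance trend and 0 to 2 with 1 array left out. Hemidesmosome genes numbered 0 under quantile normalization, median centring, a pseudocount of 1, the mean of all probe sets and 1 array left out. Junction genes numbered 1 to 3 with 1 array left out (Cldn6 among the 3 without vector 1); with each probe set tested, or a gene's probe sets averaged, they numbered 4, Ctnnb1 among them. Regulators numbered 0 without the dimmest genes, 2 with each probe set tested, 3 at 0.1 and 0 to 3 with 1 array left out. The shares passing over all genes tested were 18.4% without the dimmest genes, 19.5% at 0.1 and 1.82% to 17.2% with 1 array left out. Of all probe sets, 13.7% passed. At 0.01 the counts were 0, 0, 1 and 0 for keratins, hemidesmosome, junction and regulators. Choosing the brightest probe set by mean intensity, added after seeing the data, gave 1462 genes and 0 members. The cause of these differences was not tested. Without detection calls, dim probe sets are not told apart from background.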
